A study of Mus musculus with 4 samples.

Results

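The sphingolipid and ceramide enzymes described here are 10 genes that make, modify or break down ceramide: Sptlc1, Sptlc2, Cers2, Cers5, Cers6, Degs1, Ugcg, Sgms1, Asah1 and Sphk1. Their probes were those non-control probes of the array whose gene name equals one of these symbols. That gave 24 of 56605 probes, and 10 of 37074 gene names. The RNA came from RAW264.7, a mouse macrophage-like cell line, in 4 groups: Mfp2-/- cells with LPS, wild-type cells with LPS, Mfp2-/- cells without LPS and wild-type cells without LPS. LPS is lipopolysaccharide, a component of the bacterial outer membrane that macrophages sense through Toll-like receptor 4. The gene Hsd17b4 encodes Mfp2, a peroxisomal enzyme that takes part in shortening very-long-chain and branched fatty acids. Each group had 1 array of 1 RNA sample, so no difference between 2 arrays has a replicate check and none is given a p-value. The sources used here give neither the dose and duration of LPS nor how the Mfp2-/- cells were made or whether they are 1 clone.

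Ceramide is built at the endoplasmic reticulum from serine and palmitoyl-CoA. Serine palmitoyltransferase makes the sphingoid base, ceramide synthases attach a fatty acyl chain, and a desaturase turns dihydroceramide into ceramide. Ceramide is then converted to glucosylceramide or to sphingomyelin, or it is cleaved to sphingosine, which sphingosine kinases phosphorylate to the signalling lipid sphingosine 1-phosphate. Macrophages are known to remodel these lipids when Toll-like receptors are engaged.

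Of the 10 genes, 7 had more than 1 probe, up to 5 for Sgms1, while Cers5, Degs1 and Sphk1 had 1 each. Each probe is 60 bases long. Stretches of 30 bases are shown for the probes on which the results turn: those past 2-fold with LPS in either genotype, the 2 further Cers6 probes above background, and the Asah1 probe that stood lowest between the genotypes with LPS. They are the first 30 bases of each probe, except for Sptlc2 A_66_P127787, where bases 27 to 56 are shown. The capitals mark a polyadenylation hexamer (AATAAA), which 2 of the 24 probes hold in this form or as ATTAAA.
Sphk1, A_51_P501248: ttgcatatagaagacactccccattgctct
Sptlc2, A_52_P200244: aaccacacttcagtgaccccttcatgtgaa
Sptlc2, A_66_P127787: tgcatgttaagaAATAAAgcgaacctactt
Cers6, A_52_P667287: tattaatatctctgtctaatgttctcccaa
Cers6, A_52_P323111: gtggaatggtgtgccattagccaattagaa
Cers6, A_55_P2716836: tgtgcattcaacacttactcgtgaaacaaa
Ugcg, A_51_P332717: gttggaggttttcaatgtctactcaagttg
Ugcg, A_65_P00596: gatgccagcatatgaagttgcaaaatatga
Asah1, A_51_P509098: gacaccacatagaaattgccagttcatttc
In the mm9 coordinates of the files, the Sphk1 probe lies on the plus strand at chr11:116397908-116397967. The Sptlc2 probes lie on the minus strand at chr12:88650718-88650777 and chr12:88646059-88646118. The Cers6 probes lie on the plus strand at chr2:68948945-68949004, chr2:68952168-68952227 and chr2:68700722-68700781. The Ugcg probes lie on the plus strand at chr4:59231369-59231428 and chr4:59226071-59226130, and the Asah1 probe on the minus strand at chr8:42426681-42426740. No mm9 annotation was used here, so whether a probe lies in coding or untranslated sequence was not determined. As a description of the sequences alone, 7 of the 24 probes hold a stop codon in all 3 sense frames.

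Levels are given as relative signal, the processed signal of a probe divided by the 75th percentile of its array, so that 1 is a fairly bright probe and 0.05 is near the background. Differences are on the log2 scale, and a probe was called higher or lower when it differed by 2-fold or more, which is 1 on that scale. Before scaling the 75th percentile was between 463 and 567, between 47.4% and 49.7% of spots were well above background, and 0 were saturated. Replicate spots within an array put the technical SD of a difference at 0.272 for dim, 0.153 for middle and 0.0997 for bright probes. The first 2 rest on 12 and 9 pairs of a probe and an array, against 1080 for bright probes, and are themselves imprecise. That error covers spots of 1 array only, not separate cultures. It pools the 4 arrays, although bright spots had an SD of 0.097 in Mfp2-/- cells with LPS and 0.050 in wild type with LPS. Without LPS that SD was 0.076 in Mfp2-/- cells and 0.046 in wild type. For bright probes the pooled value is thus low for Mfp2-/- cells and high for wild type. The slide and the scan time were shared by the 4 groups, while each group had a position of its own, so position and group cannot be told apart.

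The targeted gene was checked first. Hsd17b4 had a relative signal of 2.63 in Mfp2-/- cells with LPS, 6.07 in wild type with LPS, 4.49 in untreated Mfp2-/- cells and 8.32 in untreated wild type. The difference of Mfp2-/- cells from wild type was -1.21 log2 with LPS, past 2-fold, and -0.89 without, short of it, and the probe was still well above background on both Mfp2-/- arrays. Where the probe lies relative to the edit is not given in the sources used here, so the remaining signal neither checks the label nor speaks against it. For LPS, all 8 probes of Tnf, Il1b, Nos2 and Cxcl10, inflammatory genes that LPS induces, were higher by at least 2-fold in both genotypes. All 8 macrophage marker genes had a probe above background on every array. Among marker genes of other cell types, Alb, Col1a1, Col1a2, Epcam and Krt8 had no probe above background on any array, while Cd3e and Pecam1 had one on at least 3 arrays.

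Of the 24 member probes, 19 were well above background on all 4 arrays and 3 on some of them. The remaining 2, Cers6 A_55_P2623761 and Sgms1 A_55_P2722418, were above background on none and entered no comparison. The other 22 were tested in each comparison. The plot of scaled signal by gene shows every probe.

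**Figure D1:**
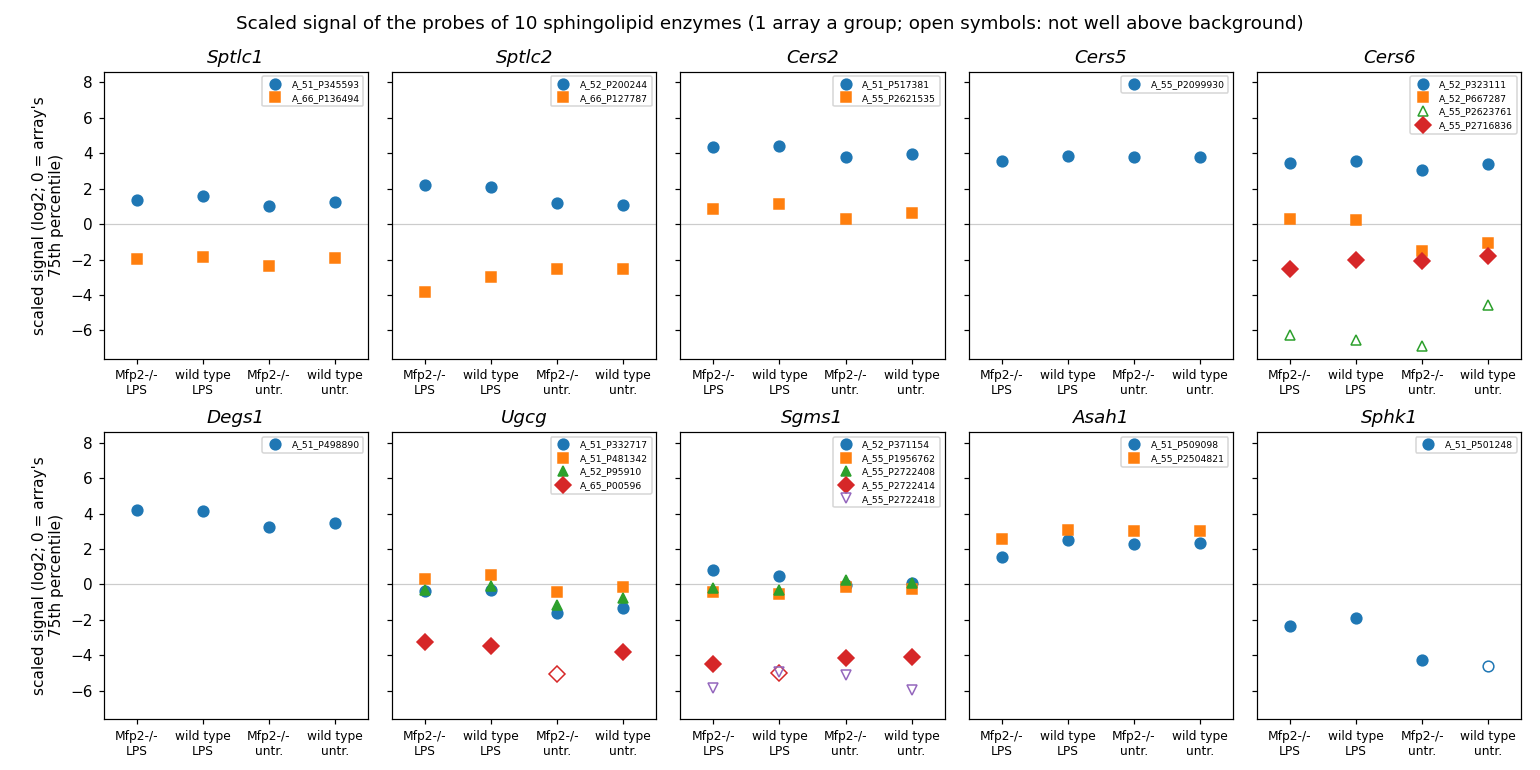
Scaled signal of all 24 probes of the 10 genes on the 4 arrays, as log2 of the signal minus the 75th percentile of the array (y axis), by group (x axis). Each symbol is 1 probe on 1 array, with open symbols for probes not well above background. The Sphk1 probe and Cers6 A_52_P667287 are higher on both LPS arrays than on both untreated arrays, and Sptlc2 A_66_P127787 is lowest in Mfp2-/- cells with LPS.

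With LPS, 5 member probes of 4 genes were higher and 1 was lower in Mfp2-/- cells, and 3 probes of 3 genes were higher and 0 lower in wild type. Sphk1, Sptlc2 A_52_P200244 and Cers6 A_52_P667287 were higher in both genotypes. Ugcg A_51_P332717 and A_65_P00596 were higher, and Sptlc2 A_66_P127787 lower, by this threshold in Mfp2-/- cells only, which is not a test that the genotypes differ. Of all probes tested, 11.2% were higher and 11.8% lower in Mfp2-/- cells, and 9.39% were higher and 8.29% lower in wild type. In both genotypes the members' share of the 22 probes was above that background for higher and below it for lower. The counts are small and include more than 1 probe of Ugcg, and the excess was not tested. The median difference of the 22 probes was 0.47 in Mfp2-/- cells and 0.36 in wild type, against -0.0019 and 0.00061 over all probes tested. In these bulk samples, more cells with a transcript and more transcript per cell cannot be told apart.

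The scale of the LPS comparisons depends on what is held constant between arrays. Centred on 7 spike-in probes instead of the 75th percentile, the median of all probes was -0.24 in Mfp2-/- cells and -0.23 in wild type. The calls then split into 2219 higher and 4723 lower in Mfp2-/- cells, against 3150 and 3335 on the 75th percentile. In wild type they split into 1891 higher and 3445 lower, against 2610 and 2306. On the spike-in scale the members' median was 0.24 in Mfp2-/- cells and 0.13 in wild type, still above that of all probes.

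Serine palmitoyltransferase, which carries out the first and rate-limiting step, was represented by the subunit Sptlc1 and the catalytic subunit Sptlc2. Sptlc2 A_52_P200244 had a relative signal of 4.70 in Mfp2-/- cells with LPS, 4.36 in wild type with LPS, 2.31 in untreated Mfp2-/- cells and 2.12 in untreated wild type. Both LPS arrays thus lay above both untreated arrays, and the genotypes lay close together. The LPS difference was 1.03 in Mfp2-/- cells and 1.04 in wild type. This call stands at the threshold: the difference was 0.96 in each genotype with normexp background correction, and 0.79 in Mfp2-/- cells and 0.81 in wild type with spike-in centring. The call was also lost in both genotypes in the authors' deposited table, and in Mfp2-/- cells with quantile normalization.

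The other Sptlc2 probe, A_66_P127787, lies 4659 bases further downstream and moved the other way. Its relative signal was 0.0700 in Mfp2-/- cells with LPS, 0.129 in wild type with LPS, 0.172 in untreated Mfp2-/- cells and 0.171 in untreated wild type. The array of Mfp2-/- cells with LPS alone stood clearly below the rest. The LPS difference was -1.30 in Mfp2-/- cells and -0.41 in wild type. The probe is dim, and with normexp correction these differences were -0.52 and -0.19, which ends the call. That correction adds an offset of 50 to the signals, which by itself shrinks the differences of dim probes. The 2 probes therefore gave opposite directions for the gene.

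Sptlc1 A_51_P345593 had a relative signal of 2.53 in Mfp2-/- cells with LPS, 3.06 in wild type with LPS, 2.0 in untreated Mfp2-/- cells and 2.39 in untreated wild type. With LPS it differed by 0.34 in Mfp2-/- cells and 0.36 in wild type, above the technical SD and below the 2-fold threshold. The dimmer Sptlc1 A_66_P136494 ranged between 0.193 and 0.280 over the 4 arrays, with LPS differences of 0.39 in Mfp2-/- cells and 0.06 in wild type.

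Among the ceramide synthases, Cers2 makes very-long-chain ceramides, and Cers5 and Cers6 prefer palmitoyl-CoA. Cers6 A_52_P667287 had a relative signal of 1.24 in Mfp2-/- cells with LPS, 1.18 in wild type with LPS, 0.355 in untreated Mfp2-/- cells and 0.487 in untreated wild type. The LPS arrays lay above the untreated ones in both genotypes, by 1.81 (3.51-fold) in Mfp2-/- cells and 1.28 (2.43-fold) in wild type. The call held under each scaling and background alternative tried, with values between 1.5 and 1.83 in Mfp2-/- cells and between 1.05 and 1.29 in wild type.

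The other Cers6 probes did not share that difference. Cers6 A_52_P323111, 3223 bases further downstream, had a relative signal of 10.8 in Mfp2-/- cells with LPS, 11.9 in wild type with LPS, 8.26 in untreated Mfp2-/- cells and 10.75 in untreated wild type. It differed with LPS by 0.38 in Mfp2-/- cells and 0.15 in wild type, where spike-in centring turned the sign (-0.09). Cers6 A_55_P2716836, far upstream of both, had LPS differences of -0.49 in Mfp2-/- cells and -0.26 in wild type. The 3.51-fold and 2.43-fold differences thus belong to 1 probe and not to the gene as a whole, and whether the probes read different transcripts was not determined.

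Cers2 A_51_P517381 had a relative signal of 20.7 in Mfp2-/- cells with LPS, 21.7 in wild type with LPS, 13.9 in untreated Mfp2-/- cells and 15.7 in untreated wild type. Its LPS difference was 0.57 in Mfp2-/- cells and 0.46 in wild type. The other Cers2 probe gave nearly the same values, 0.56 and 0.48. Cers5 had a relative signal of 11.9 in Mfp2-/- cells with LPS, 14.2 in wild type with LPS, 13.6 in untreated Mfp2-/- cells and 13.7 in untreated wild type. Its LPS difference was -0.20 in Mfp2-/- cells and 0.05 in wild type, the second within 1 technical SD.

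Degs1, the dihydroceramide desaturase that completes de novo ceramide synthesis, had a relative signal of 18.5 in Mfp2-/- cells with LPS, 17.5 in wild type with LPS, 9.42 in untreated Mfp2-/- cells and 11.2 in untreated wild type. Both LPS arrays lay above both untreated arrays. The LPS difference was 0.97 in Mfp2-/- cells, just under the threshold, and 0.64 in wild type. With normexp correction the value in Mfp2-/- cells was 1.01, past the threshold.

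Ugcg encodes glucosylceramide synthase, the first step towards the glycosphingolipids. Ugcg A_51_P332717 had a relative signal of 0.782 in Mfp2-/- cells with LPS, 0.792 in wild type with LPS, 0.325 in untreated Mfp2-/- cells and 0.398 in untreated wild type. Its LPS difference was 1.27 in Mfp2-/- cells and 0.99 in wild type, where quantile normalization, median centring and the authors' deposited table each put it at or just past 1. Under spike-in centring these differences were 1.03 and 0.76.

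The remaining Ugcg probes also had positive LPS differences. Ugcg A_52_P95910 had a relative signal of 0.802 in Mfp2-/- cells with LPS, 0.934 in wild type with LPS, 0.442 in untreated Mfp2-/- cells and 0.586 in untreated wild type, and LPS differences of 0.86 and 0.67. Ugcg A_51_P481342 gave LPS differences of 0.77 in Mfp2-/- cells and 0.68 in wild type. All 3 of these probes thus had both LPS arrays above both untreated arrays. The dim Ugcg A_65_P00596 had a relative signal of 0.104 in Mfp2-/- cells with LPS, 0.0897 in wild type with LPS, 0.0304 in untreated Mfp2-/- cells, where it was not well above background, and 0.0699 in untreated wild type. It was at least 2.91-fold higher with LPS in Mfp2-/- cells, counted from the lowest signal well above background on the untreated array. With normexp correction, whose offset shrinks the differences of dim probes, that difference was 0.61, below the threshold.

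Sgms1, which encodes the sphingomyelin synthase of the Golgi apparatus, gave values that depended on the probe. Sgms1 A_52_P371154 had a relative signal of 1.77 in Mfp2-/- cells with LPS, 1.42 in wild type with LPS, 0.976 in untreated Mfp2-/- cells and 1.06 in untreated wild type. This probe differed with LPS by 0.86 in Mfp2-/- cells and 0.42 in wild type. Sgms1 A_55_P1956762 and A_55_P2722408 had LPS differences of -0.27 and -0.47 in Mfp2-/- cells and of -0.29 and -0.38 in wild type. The dim Sgms1 A_55_P2722414 lost its signal above background in wild type with LPS, where its bound was 1.29-fold lower. No Sgms1 probe passed 2-fold in any comparison.

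Asah1 encodes acid ceramidase, the lysosomal enzyme that splits ceramide into sphingosine and a fatty acid. Asah1 A_51_P509098 had a relative signal of 2.96 in Mfp2-/- cells with LPS, 5.78 in wild type with LPS, 4.95 in untreated Mfp2-/- cells and 5.08 in untreated wild type. Mfp2-/- cells with LPS alone stood low, and the other 3 arrays lay close together. The second probe, Asah1 A_55_P2504821, had a relative signal of 6.01 in Mfp2-/- cells with LPS, 8.30 in wild type with LPS, 7.97 in untreated Mfp2-/- cells and 8.24 in untreated wild type, the same order with a smaller gap. The LPS differences were -0.74 and -0.41 for the 2 probes in Mfp2-/- cells, and 0.19 and 0.01 in wild type. In wild type the sign of both was negative under spike-in centring, at -0.04 and -0.22.

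Sphk1 encodes sphingosine kinase 1, which makes sphingosine 1-phosphate. Its probe had a relative signal of 0.194 in Mfp2-/- cells with LPS, 0.267 in wild type with LPS, 0.0518 in untreated Mfp2-/- cells and 0.0411 in untreated wild type, where it was not well above background. Both LPS arrays were clearly above both untreated arrays. Sphk1 was 3.74-fold higher with LPS in Mfp2-/- cells and at least 6.43-fold higher in wild type. On this scale these were the largest differences of any member probe above background in each genotype. The probe is dim, and normexp correction, whose offset shrinks the differences of dim probes, gave 0.89 in Mfp2-/- cells and 1.29 in wild type. The value in Mfp2-/- cells is below the threshold. It is also below Cers6 A_52_P667287, Ugcg A_51_P332717 and Degs1, which are brighter and so less shrunk by the offset. The other scalings gave 1.67 to 1.96 in Mfp2-/- cells and 2.47 to 2.74 in wild type.

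**Figure D2:**
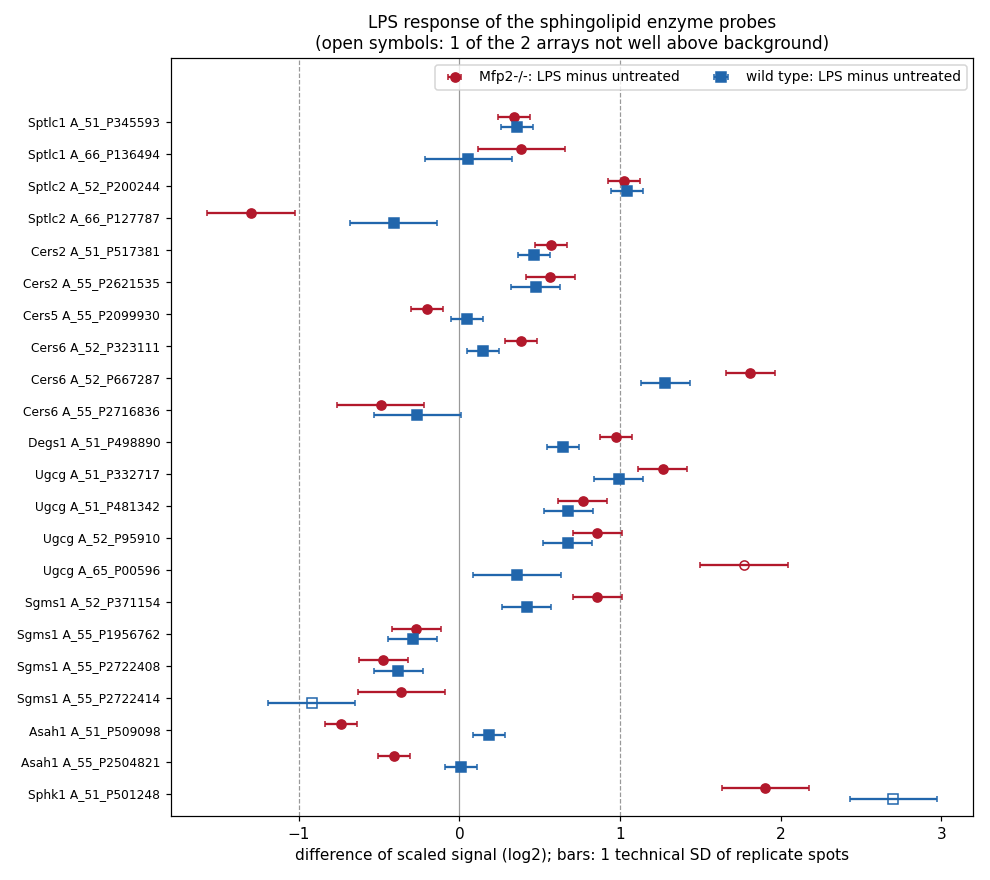
Difference with LPS minus without LPS for the 22 tested probes (rows), on the log2 scale (x axis), in Mfp2-/- cells (circles) and wild type (squares). Bars are 1 technical SD of replicate spots within an array, open symbols have 1 of the arrays not well above background, and dashed lines mark 2-fold. Open symbols are measured values, not bounds. Sphk1 is the highest in both genotypes, at 1.90 in Mfp2-/- cells and at a measured 2.70 in wild type, whose bound is 6.43-fold, and Sptlc2 A_66_P127787 the lowest in Mfp2-/- cells, at -1.30.

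A fit with 1 term for LPS and 1 for genotype uses the 4 arrays together, with each genotype standing in as the repeat of the other for the LPS term. It has 1 residual degree of freedom and assumes that the LPS difference is the same in both genotypes, so its p-values measure only the spread of these 4 arrays. By limma with Benjamini-Hochberg adjustment over 26741 probes, 6100 (22.8%) passed an adjusted p of 0.05 for LPS. Of the 26741 probes, 11.5% passed as higher and 11.3% as lower. Of the 22 member probes 6 passed, all higher. Sphk1 had an LPS term of 2.30 ± 0.257 (SE) with an adjusted p of 0.0282 by limma. Sptlc2 A_52_P200244 had 1.03 ± 0.130 with an adjusted p of 0.0311. Cers6 A_52_P667287 had 1.55 ± 0.196 with an adjusted p of 0.0313. Each of these was higher with LPS in 2 of 2 genotypes, which the additive fit itself favours. The other probes of Sptlc2 and Cers6 in the fit did not pass. Their LPS terms were -0.853 for Sptlc2 A_66_P127787, 0.263 for Cers6 A_52_P323111 and -0.377 for Cers6 A_55_P2716836.

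The other 3 members past the threshold were Ugcg probes. Ugcg A_51_P332717 had 1.13 ± 0.150 with an adjusted p of 0.0325 by limma, and A_52_P95910 and A_51_P481342 had LPS terms of 0.77 and 0.72 with adjusted p of 0.0466 and 0.0467. Degs1 missed it, with a term of 0.81 ± 0.159 and an adjusted p of 0.0515, which ranged between 0.0112 and 0.0668 over the alternatives of the fit. No LPS term of Sptlc1, Cers2, Cers5, Sgms1 or Asah1 passed in this fit. Both Cers2 probes, at adjusted p of 0.0772 and 0.0760, passed under some alternatives, with ranges of 0.0193 to 0.133 and 0.0350 to 0.0773 by limma. Sgms1 A_52_P371154, at 0.0879, ranged between 0.0412 and 0.0914 and passed with the trended prior and normexp correction, and Sptlc1 A_51_P345593, at 0.141, passed with normexp correction alone, in a range of 0.0474 to 0.150. For the genotype term, 0 of all probes and 0 of 22 member probes passed by limma, with 2459 of all probes and 0 member probes at an unadjusted p under 0.05. The count over all probes was 145 with a trended prior, 45 with normexp correction, 32 with the stricter filter and 0 with quantile normalization, and the members' count was 0 under each.

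Between the genotypes, no member probe was called at 2-fold. With LPS, 0 of 22 probes were higher and 0 lower in Mfp2-/- cells than in wild type, where 1.53% of all probes were higher and 4% lower. Without LPS, again 0 of 22 were higher and 0 lower, where 2.61% of all probes were higher and 3.64% lower. At such shares a count of 0 in 22 probes is near the background. The members' median difference was -0.15 with LPS and -0.21 without, against 0.019 and 0.017 over all probes. By sign alone, 5 of 22 member probes (22.7%) had a difference above 0 without LPS, against 52.8% of all probes, and between 4 and 7 did under the scaling and background alternatives. These 22 probes belong to 10 genes, and probes of the same gene are not independent. Some signs also carry little weight, as Cers5 (-0.008) and the Asah1 probes (-0.04 and -0.05) lay within 1 technical SD of 0.

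Most of these untreated differences were small. For the probes well above background on both untreated arrays they lay between -0.48 (Sptlc1 A_66_P136494) and 0.19 (Sgms1 A_55_P2722408). The 3 Ugcg probes measured on every array differed by -0.29 (A_51_P332717), -0.33 (A_51_P481342) and -0.41 (A_52_P95910). Cers6 A_52_P667287 differed by -0.46, Cers6 A_52_P323111 by -0.38, Degs1 by -0.25 and the brighter Sptlc1 probe by -0.25. Each of these differences exceeded 1 technical SD, and none has a replicate culture behind it. The dim Ugcg A_65_P00596 had a measured difference of -1.20 in untreated Mfp2-/- cells relative to wild type. It was not well above background in these Mfp2-/- cells, and its bound was 1.96-fold lower, just short of the call.

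With LPS the member probes closest to the threshold were Asah1 A_51_P509098, at -0.96, and Sptlc2 A_66_P127787, at -0.88. They were the lowest differences among the members, and neither passed 2-fold. Among all probes tested, these values stood at percentiles 6.05 and 6.79. The second Asah1 probe had the same sign, at -0.46. Asah1 A_51_P509098 kept its value under the alternatives, between -0.99 and -0.94. The dim Sptlc2 A_66_P127787 gave -0.30 with normexp correction, whose offset shrinks such differences. That value is less than the other settings by over 1.5 times.

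**Figure D3:**
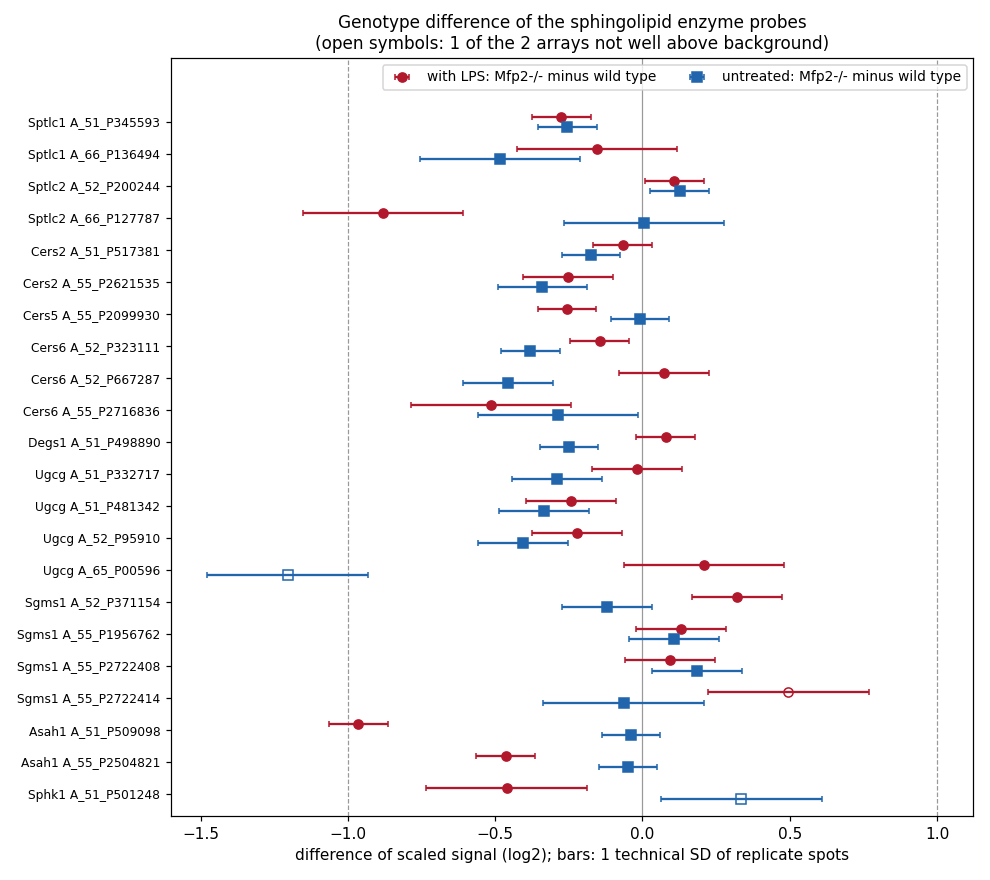
Difference of Mfp2-/- minus wild type for the 22 tested probes (rows), on the log2 scale (x axis), with LPS (circles) and without LPS (squares). Bars are 1 technical SD of replicate spots within an array, open symbols have 1 of the arrays not well above background, and dashed lines mark 2-fold. Asah1 A_51_P509098 lies at -0.96 with LPS and at -0.04 without, and the open square of Ugcg A_65_P00596 is the measured value, whose bound is 1.96-fold.

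The LPS responses of the genotypes can be set against each other for the 19 probes above background on all 4 arrays. The difference of the responses, Mfp2-/- minus wild type, passed 2-fold for 0 members in either direction, where 1.82% of all probes passed it upward and 2.62% downward. The 2 lowest were Asah1 A_51_P509098, at -0.93, and Sptlc2 A_66_P127787, at -0.89, at percentiles 3.18 and 3.49 of all probes. The technical SD of such a difference is 0.141 for the first, a bright probe, and 0.385 for the second, a dim one. The highest were Cers6 A_52_P667287, at 0.53, and Sgms1 A_52_P371154, at 0.44, each beyond its technical SD of 0.216. Sptlc2 A_52_P200244 (-0.02) and the brighter Sptlc1 probe (-0.02) differed between the genotypes by less than the technical SD. With 1 array a group, the 4 arrays allow no test of these differences.

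Probes of the same gene differed in the direction of the LPS difference for 3 of the 7 genes with more than 1 probe. For Sptlc2 the upstream probe was past 2-fold upward in both genotypes, and the downstream probe past it downward in Mfp2-/- cells, with -0.41 in wild type. For Cers6 the probe furthest upstream, A_55_P2716836, had negative differences and the 2 downstream probes positive ones, though spike-in centring turned the sign of A_52_P323111 in wild type. For Sgms1 the sign was positive for the most downstream probe and negative for the probes 33980 and 96311 bases upstream of it, none of them past 2-fold. The 3 Ugcg probes above background on all 4 arrays had positive differences over 3964 bases. Levels of different probes are not compared, since probes differ in their own brightness.

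**Figure D4:**
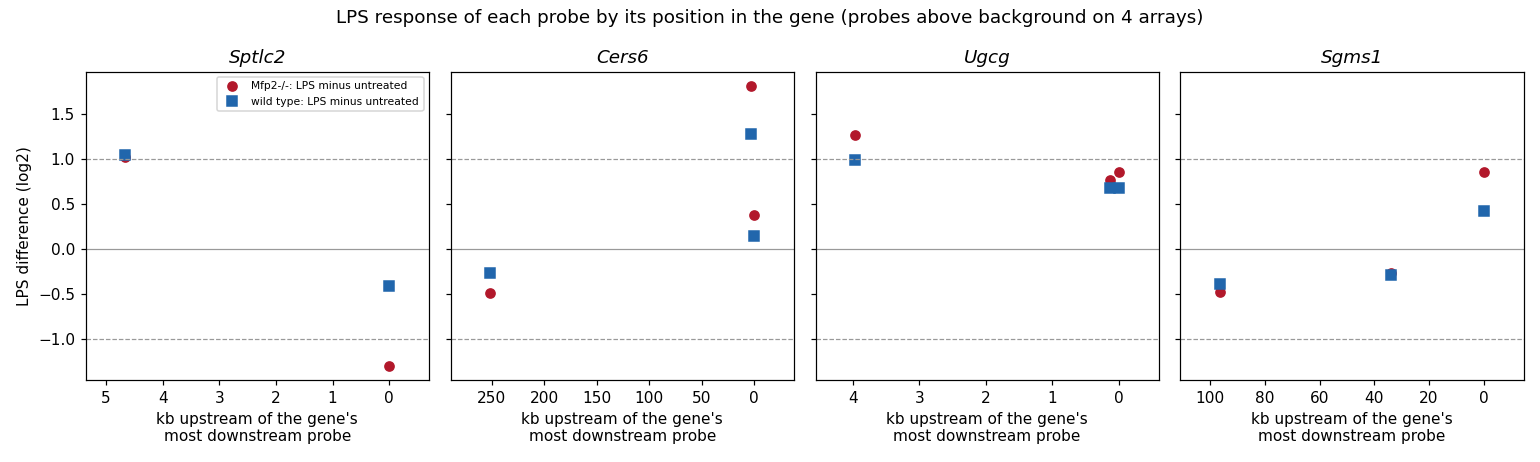
LPS difference (y axis, log2) of the probes above background on all 4 arrays, by their distance upstream of the most downstream probe of the gene (x axis, kb, upstream to the left), for Sptlc2, Cers6, Ugcg and Sgms1. Circles are Mfp2-/- cells, squares wild type, and dashed lines mark 2-fold. The probes of Sptlc2, Cers6 and Sgms1 fall on both sides of 0, and those of Ugcg shown all lie above it.

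Around the 10 enzymes, 64 other genes of sphingolipid metabolism, transport and signalling were listed. A probe of their name existed for 63, a signal above background on some array for 50, and a probe past 2-fold for 15. With LPS, 6 of 69 probes tested were higher and 10 lower in Mfp2-/- cells, where 11.2% of all probes were higher and 11.8% lower. In wild type 5 of 68 were higher and 7 lower, where 9.39% of all probes were higher and 8.29% lower, so these counts lie near the background. Their median was -0.11 in Mfp2-/- cells and -0.01 in wild type. Without LPS, 0 of 69 differed by 2-fold between the genotypes, where 2.61% of all probes were higher and 3.64% lower in Mfp2-/- cells.

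In de novo synthesis, Cers4, another ceramide synthase, had a relative signal of 0.323 in Mfp2-/- cells with LPS, 0.213 in wild type with LPS, 0.0679 in untreated Mfp2-/- cells and 0.0550 in untreated wild type. It was 4.75-fold higher with LPS in Mfp2-/- cells and 3.87-fold higher in wild type, on a dim probe. Kdsr, the reductase that acts just after serine palmitoyltransferase, was lower. Kdsr A_51_P107782 had a relative signal of 0.373 in Mfp2-/- cells with LPS, 0.342 in wild type with LPS, 1.48 in untreated Mfp2-/- cells and 1.04 in untreated wild type, which are differences of -1.98 and -1.61. A second Kdsr probe was no longer above background with LPS, at least 4.24-fold lower in Mfp2-/- cells and 2.52-fold lower in wild type. Sptssa, a small subunit of serine palmitoyltransferase, had a difference of -1.86 in Mfp2-/- cells and -1.10 in wild type. Hence this list held 1 gene higher and 2 lower with LPS in each genotype.

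Around sphingosine 1-phosphate, Sphk2, the second sphingosine kinase, was higher with LPS, by 1.29 in Mfp2-/- cells and 1.17 in wild type. Cerk, the ceramide kinase, was lower on both of its probes. Cerk A_55_P2146177 had a relative signal of 4.11 in Mfp2-/- cells with LPS, 5.18 in wild type with LPS, 17.8 in untreated Mfp2-/- cells and 10.9 in untreated wild type. The LPS differences of this probe were -2.11 in Mfp2-/- cells and -1.08 in wild type. The array of untreated Mfp2-/- cells stood highest, 0.70 above untreated wild type. Sgpp1, a phosphatase of sphingosine 1-phosphate, had LPS differences of -1.84 in Mfp2-/- cells and -0.94 in wild type. S1pr1, a receptor for sphingosine 1-phosphate, was above background on the untreated arrays and on neither LPS array, at least 3.83-fold lower in Mfp2-/- cells and 2.13-fold lower in wild type. One dim probe of Asah2, the neutral ceramidase, was higher with LPS by 1.23 in Mfp2-/- cells and 1.17 in wild type. A second dim Asah2 probe, also above background on every array, differed by only 0.36 and 0.19. One probe of Ppap2a, a lipid phosphate phosphatase, differed by 1.08 in Mfp2-/- cells and 0.84 in wild type.

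In sphingomyelin turnover, Samd8, a relative of the sphingomyelin synthases that makes ceramide phosphoethanolamine, had 1 probe higher with LPS by 1.58 in Mfp2-/- cells and 1.07 in wild type. Smpd2, a neutral sphingomyelinase, was at least 2.52-fold lower in Mfp2-/- cells, where it was not above background with LPS, and had a difference of -0.87 in wild type. Among transfer proteins, Cptp, which carries ceramide 1-phosphate, was higher by 1.14 in Mfp2-/- cells and 1.01 in wild type. Gltp, which carries glycolipids, had differences of -1.22 and -0.62.

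In the breakdown of glycosphingolipids, Gm2a, the activator protein for ganglioside GM2 hydrolysis, had a relative signal of 0.219 in Mfp2-/- cells with LPS, 0.749 in wild type with LPS, 0.528 in untreated Mfp2-/- cells and 0.711 in untreated wild type. Mfp2-/- cells with LPS stood low, as they did for Asah1. Gm2a and Sgpp1 were the 2 of these genes that passed 2-fold between the genotypes with LPS, at -1.77 and -1.20. That made 2 of 65 probes tested lower and 0 higher, where 4% of all probes were lower and 1.53% higher. The count is thus near the background. Galc, which removes galactose from galactosylceramide, had LPS differences of -0.90 in Mfp2-/- cells and -1.68 in wild type, where it was at least 3.20-fold lower. No gene of glycosphingolipid synthesis other than Ugcg passed 2-fold.

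**Figure D5:**
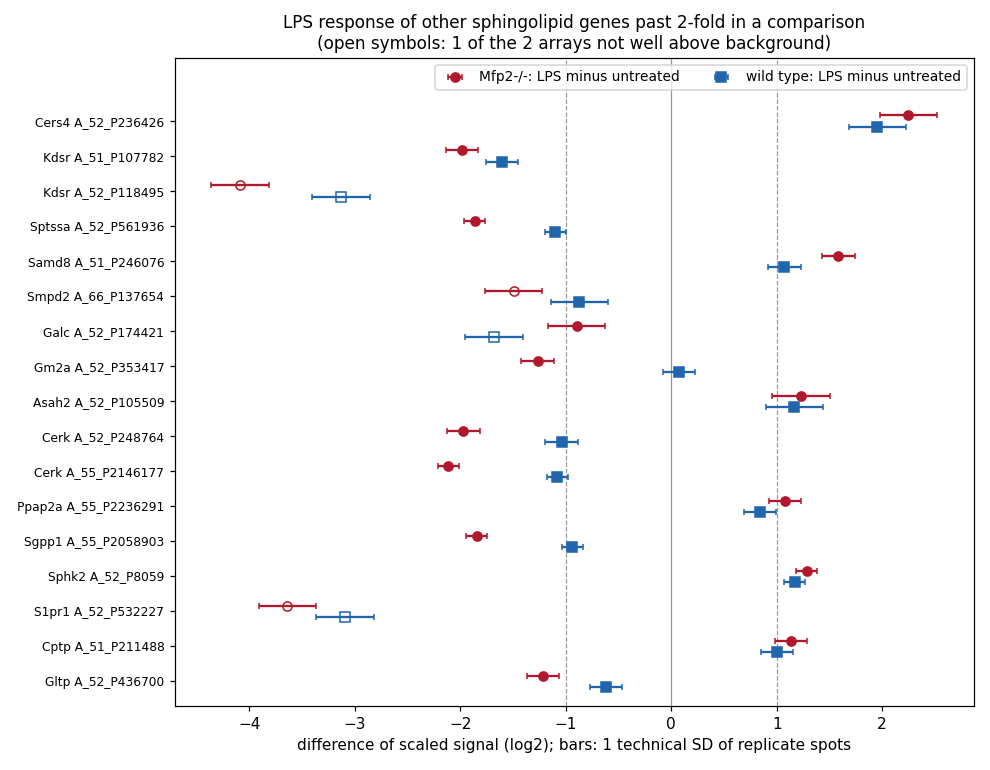
Difference with LPS minus without LPS (x axis, log2) of the probes of other sphingolipid genes that passed 2-fold in a comparison (rows), in Mfp2-/- cells (circles) and wild type (squares). Bars are 1 technical SD of replicate spots within an array, open symbols have 1 of the arrays not well above background and are measured values, and dashed lines mark 2-fold. Cers4 is the highest, at 2.25 and 1.95, and Kdsr A_52_P118495 and S1pr1 lie furthest below 0.

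The member probe with the widest range over the arrays was that of Sphk1. Candidates were the 193 named probes that, like it, were not above background in untreated wild type and were on the other 3 arrays, so the shared low point is fixed by that choice. Of these, 5 had the profile closest to it over the 4 arrays, by the root mean square distance of values centred on their own mean. These were 5830432E09Rik at a distance of 0.0575 log2, Neo1 at 0.129, Parp11 at 0.133, Cxcl10 A_55_P2016459 at 0.247 and Tlr3 at 0.254. Of these, the Cxcl10 probe had LPS differences of 2.55 in Mfp2-/- cells and 2.53 in wild type. The other Cxcl10 probe was above background on every array, so it was no candidate. Its LPS differences were 4.47 and 3.65, so the likeness belongs to 1 probe of that gene. All 5 distances in the list lie within the technical SD of dim probes, 0.272, so their order carries no weight, and the likeness describes these 4 arrays only.

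Promoter windows of 9 of the genes, 250 bases before to 50 after a start, were taken from RefSeq on GRCm38.p6 and searched on both strands. The search used AP-1 (TGANTCA), CRE (TGACGTCA), the E-box CACGTG, the NF-kB motif and the ISRE motif. For Sphk1 and Degs1, 1 window each is shown for the 150 bases before the start, with the matches in capitals. These windows were picked for the matches they hold and not by the LPS difference. Sphk1 has other windows, some of them without an AP-1 match. Sphk1 is on the plus strand at chr11:116531687-116531836 and holds an AP-1 match 50 bases before the start. Degs1 is on the minus strand at chr1:182282196-182282345 and holds an NF-kB match 72 bases and an E-box 43 bases before it.
Sphk1: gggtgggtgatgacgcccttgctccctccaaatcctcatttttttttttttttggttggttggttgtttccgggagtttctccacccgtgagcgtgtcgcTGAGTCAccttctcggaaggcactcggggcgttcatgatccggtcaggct
Degs1: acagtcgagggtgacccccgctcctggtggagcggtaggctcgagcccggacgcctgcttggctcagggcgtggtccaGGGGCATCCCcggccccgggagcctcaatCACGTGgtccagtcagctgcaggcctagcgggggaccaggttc
Over the 17 windows of these genes, AP-1 matched in 3, of Sphk1 and Sgms1, against 7.81% of all 32851 windows. NF-kB matched in 2, of Degs1 and Sphk1, against 4.51%. The E-box matched in 5, of Cers2, Cers6, Degs1 and Sphk1, against 7.15%. CRE and ISRE matched in 0 of 17, against 1.79% and 3.44%. Several windows of Sphk1 overlap, so 1 match can count more than once. No match stood in the windows of Sptlc1, Sptlc2, Cers5 or Ugcg, which says only that these letters are not in these 300 bases.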

How the data were processed

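The 4 scanner files give, per the file headers, the intensity of each spot as Agilent Feature Extraction 10.7.1.1 read it, linear and background subtracted. Version 9.5.1.1 is named in the submitters' processing notes. The deposited flags, of the unit other, are 0 or 1 for a spot well above background, saturated or an outlier, per the file headers. The authors' deposited series table holds linear intensity too. After quantile normalization of the scanner values here, 52579 to 53177 of the 56605 probes of an array came within 0.01 log2 of it, and it served as an alternative.

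From these, log2 of the processed signal minus the 75th percentile of each array was computed, without control or outlier spots, and spots of a probe were averaged. A probe above background on only 1 of the arrays compared was called on a bound, for which the dim array took its own signal or, where that was lower, the array's faintest signal well above background. The additive fit used limma 3.58.1 in R 4.3.3 on probes above background on at least 2 arrays. Its calls and the 2-fold calls were tried on simulated data with independent noise. Such data hold no spread between cultures, so they cannot show whether the calls would repeat. Other steps used Python 3.11.15, numpy 2.4.6, pandas 2.3.3 and matplotlib 3.10.9. Technical SDs come from replicate spots of the same probe, and 56305 probes had 1 spot.

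All 15 member probes with a RefSeq accession carry the same symbol in a RefSeq table of GRCm38.p6, which was used for names, strand and promoters only. Genes outside the 10 were named when a probe of theirs passed 2-fold in a comparison, and for the likeness to Sphk1 the 5 closest. The members and the gene lists were chosen with earlier results of these data known. Alternatives were normexp correction (offset 50), quantile normalization, median centring, spike-in centring, the deposited table, no filter or a stricter filter on dim probes, and thresholds of 1.5-fold and 4-fold. One marker gene of another cell type is not reported here.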

Additional observations from a re-analysis of the deposited data

How the results depend on the processing

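Of 705 values of single member probes under alternatives, 635 moved by less than the technical SD, 70 by more (32 under spike-in centring, 16 normexp, 11 quantile normalization, 11 the deposited table), and 0 reversed a call. Calls of all probes in either direction were 6485 for LPS in Mfp2-/- cells (normexp 3753, no filter 11046, 1.5-fold 12070, 4-fold 1587) and 4916 in wild type (2800, 9172, 9811 and 1227). Between the genotypes they were 1497 with LPS (550, 5049, 4128 and 277, and 894 above background on both arrays) and 1758 without (646, 5704, 3916 and 401, and 943). Member probes higher with LPS in Mfp2-/- cells, 5, became 3 with normexp, 9 at 1.5-fold and 0 at 4-fold; lower, 1, became 0, 2 and 0. In wild type, 3 higher became 7 at 1.5-fold and 1 at 4-fold, and 0 lower became 1 with no filter. With no filter, 2 members were lower in untreated Mfp2-/- cells, and 1 at 1.5-fold; with LPS 2 were lower at 1.5-fold. Under normexp, Sphk1, both Sptlc2 probes and Ugcg A_65_P00596 lost their calls in Mfp2-/- cells and Degs1 gained one. The normexp offset shrinks the differences of dim probes by design, so a call lost on a dim probe is no separate check of it. The LPS term of the limma fit passed for 9924 of 26741 probes with a trended prior and 9110 with normexp (6100 as reported). It passed for 10 of 22 member probes with that prior and 11 with normexp (6 as reported), so the count rose over all probes as well. The genotype term passed for 145, 45 and 32 probes with the trended prior, normexp and the stricter filter (0 as reported).

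No paired analysis was possible because the labels give no replicate numbers and each group has 1 array. For the same reason leaving out an array leaves no residual degrees of freedom, and it was not run. Signal over background limits the dim probes of Sphk1, Sptlc2 A_66_P127787 and Ugcg A_65_P00596.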
